A study of Rattus norvegicus with 192 samples.

Results

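The genes described here are the nuclear-encoded subunits of the respiratory chain and of ATP synthase, measured as RNA in the nucleus accumbens core of outbred rats. They were taken by symbol: Ndufa, Ndufb, Ndufc, Ndufs and Ndufv genes followed by a number, the Sdh subunits a to d, and the Uqcr, Cox4 to Cox8 and Atp5 genes. Of 100 symbols of this pattern, 13 copies ending in l1 or l2 and 1 other gene were left out. This gave 86 of the 38354 genes in the deposited table, with 36 genes in complex I, 4 in complex II, 8 in complex III, 18 in complex IV and 20 in complex V (ATP synthase). Of the 86 genes, 80 reached a mean of 1 CPM (counts per 1000000 counts of a library) over 159 libraries and were tested. Cox6b2, at a mean of 1.18 CPM, was the lowest gene tested, and Cox6a2, at 0.523 CPM, the highest one left out.

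PolyA RNA of the accumbens core was sequenced in a cohort from which other brain regions were sampled too. The labels list 192 libraries of this region, 159 of them in the table used here, with 33 marked as removed. They give outbred rats and the tissue as the only description, and no treatment, strain name, sex, age or date. The format of the rat identifier divides the libraries: 12 libraries have a label corrected to the E21 format (corrected E21), 77 an identifier starting with E21, 67 an all-digit one (numeric), 2 one starting with AA1, and 1 a label corrected to another format.

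The markers of the labelled tissue were present in most libraries but not in all. Drd1, the D1 dopamine receptor of striatal medium spiny neurons, lay between 154 and 441 CPM in 147 libraries, called Drd1 libraries here. In 11 others Drd1 was between 1.61 and 7.77 CPM and Th, the enzyme that starts dopamine synthesis, between 630.0 and 2107 CPM, against at most 10.7 CPM elsewhere. These 11 are called Th libraries. Their markers go against their label, and the groups were set by these 2 genes at 100 CPM, since no label gives them. All 10 genes of a midbrain dopamine neuron list were higher in the Th libraries (summed level 1733 to 5564 CPM, against 26.3 to 84.1 CPM) and all 10 of a medium spiny neuron list lower (316 to 528 CPM, against 2793 to 7784 CPM). The first list contains Th and the second Drd1, so these counts and sums are partly set by the choice of groups and are given as a description. Of a list of 6 genes named for midbrain glutamate and red nucleus neurons 4 were tested, all higher (Slc17a6, Foxa2, Lmx1a and Lmx1b). Of 8 cortical markers 2 were higher and 6 lower. Of the 11, 10 have a numeric label and 1 an E21 label. The remaining library had 20.0 CPM of Drd1 and entered no comparison. Total expected counts were 24.5 ± 4.38 M in the Th libraries and 24.8 ± 7.37 M in the Drd1 libraries (SD, n = 11 and 147, M standing for 1000000), with 14.6 to 61.2 M over all.

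The respiratory chain sits in the inner mitochondrial membrane. Complex I (NADH dehydrogenase) and complex II (succinate dehydrogenase, which is also an enzyme of the TCA cycle) pass electrons to ubiquinone, complex III (the cytochrome bc1 complex) passes them to cytochrome c, and complex IV (cytochrome c oxidase) to oxygen. Complexes I, III and IV pump protons, and complex V uses the gradient to make ATP, on which neurons spend much for ion pumping and synaptic transmission. Some subunits of each complex but complex II are encoded in mitochondrial DNA; those genes were not analysed here. The nuclear subunit genes are known targets of NRF1 (nuclear respiratory factor 1), of GABP (an ETS family factor, also called NRF2) and of YY1.

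RefSeq promoters of the assembly GRCr8, from 250 bases before to 50 bases after the gene start, matched 76 of the 86 symbols. Each was searched on both strands for an NRF1 motif (GCGC, any base, then TGCGC), an ETS motif (CCGGAAG) and a YY1 motif with its flank (AAGATGG followed directly by CGGC). None of these motifs contains another. The NRF1 letters occurred in 15 of 76 promoters (19.7%), against 4.71% of all 27457 promoters in the table. ETS letters occurred in 21 (27.6%), against 9.22%, and YY1 letters in 8 (10.5%), against 0.798%. At least 1 of the 3 occurred in 39 promoters (51.3%), against 13.6%. Complex IV was without an NRF1 match, 0 of 15, and 7 of the 8 YY1 matches were in complex I. A match describes the letters of a window and not binding. For each complex the gene with the highest log2 change, Th over Drd1 libraries, was taken among those with an NRF1 match before the gene start. For complex IV ETS matches were used in the same way. The stretches below are shown as 1 example of a motif match per complex. They are 5′ to 3′ on the + strand of GRCr8, with the motif in capitals and up to 30 bases on each side, ending at the gene start where that is nearer.
Ndufv3, complex I, NRF1 motif, chr20:9613717-9613785: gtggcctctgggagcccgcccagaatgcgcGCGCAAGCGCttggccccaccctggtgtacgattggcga
Sdha, complex II, NRF1 motif, chr1:30764477-30764546: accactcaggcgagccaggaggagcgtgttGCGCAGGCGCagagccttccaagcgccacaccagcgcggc
Uqcrc1, complex III, NRF1 motif, chr8:118468129-118468198: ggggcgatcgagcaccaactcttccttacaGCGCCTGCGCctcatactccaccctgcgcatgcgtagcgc
Cox5b, complex IV, ETS motif, chr9:46417793-46417836: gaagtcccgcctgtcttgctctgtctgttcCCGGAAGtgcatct
Atp5me, complex V, NRF1 motif, chr14:1464754-1464823: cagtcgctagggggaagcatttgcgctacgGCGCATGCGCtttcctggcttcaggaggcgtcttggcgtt
The motif began 39 bases before the gene start in Ndufv3, 46 in Sdha, 64 in Uqcrc1, 14 in Cox5b and 76 in Atp5me.

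Respiratory chain RNAs differed by modest amounts, mostly upward, between the Th and the Drd1 libraries. In the 11 Th libraries 40 of the 80 tested genes were higher and 7 lower than in the 147 Drd1 libraries, by limma's moderated test on log2(CPM + 1), two-sided, at an adjusted p of 0.05 over all 15427 genes tested. That is 50% higher and 8.75% lower, where 39.4% of all genes were higher and 35.4% lower; 58.8% of the members were called at all, against 74.9% of all genes. The median absolute log2 change was 0.18 for the members and 0.33 for all genes, and 3 of the 80 members (3.75%) changed by at least 0.5, against 34.9% of all genes. The signed median was 0.14 for the members and 0.024 for all genes. The 33 genes that did not pass had log2 changes between -0.25 and 0.16. Since these are bulk samples, fewer cells of a type and less RNA per cell cannot be told apart.

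**Figure D1:**
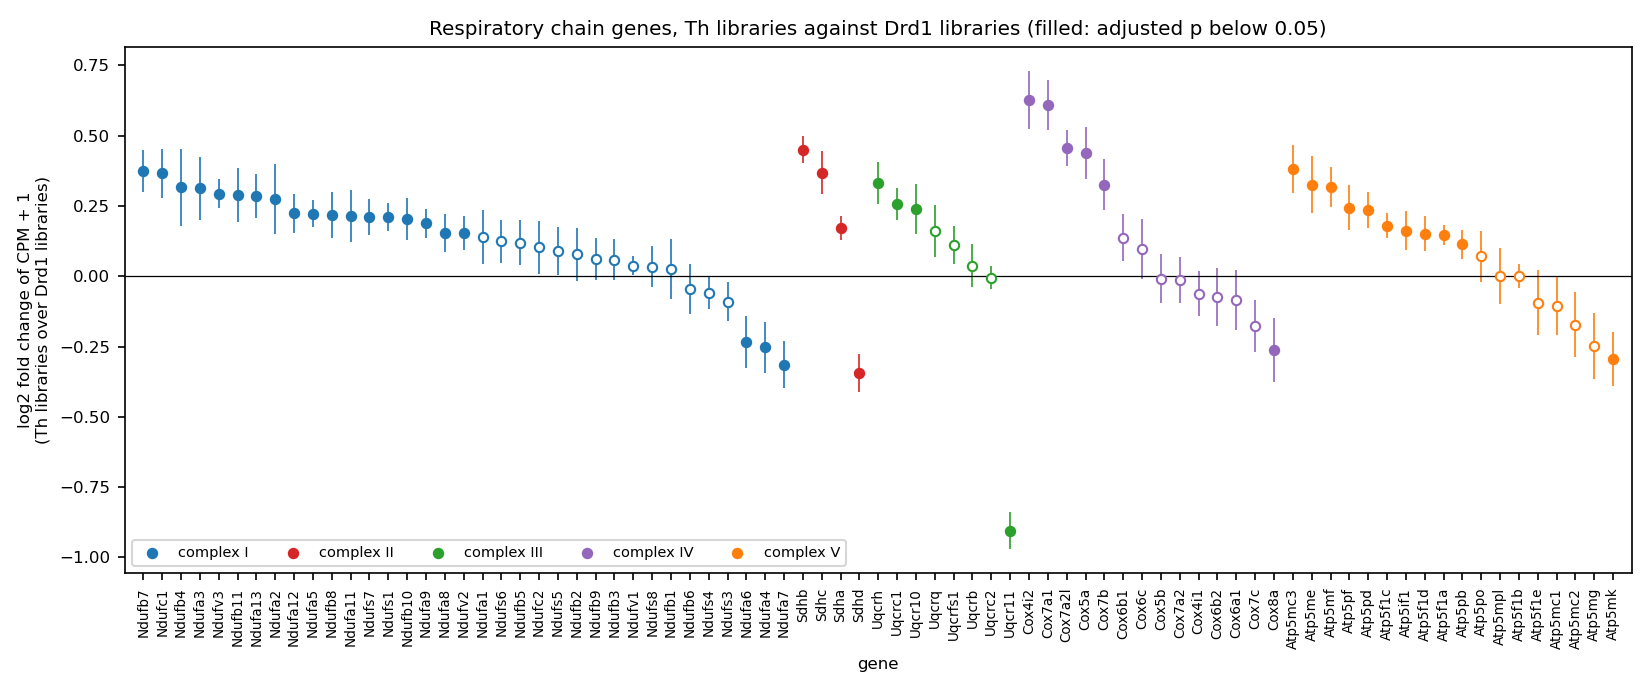
Log2 fold change of CPM + 1 (vertical axis, Th libraries over Drd1 libraries, with SE bars) for 79 of the 80 tested genes, grouped by complex and sorted within it; filled points passed limma's adjusted p of 0.05. Each of the 5 complexes holds filled points on both sides of 0, and Uqcr11 lies lowest at -0.91.

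Other cell types moved with this comparison. All 8 mature oligodendrocyte markers were higher in the Th libraries (median log2 change 0.76), with a summed level of 24944 to 34615 CPM, against 9929 to 38287 CPM in the Drd1 libraries. Of 8 astrocyte markers 4 were higher and 2 lower, with sums of 4706 to 8590.4 CPM against 3376 to 8910.3 CPM. Endothelial markers were higher in 5 of 6 cases (sums of 230.2 to 444 CPM against 142 to 420.1 CPM) and mural cell markers in 4 of 6 (63.6 to 651 CPM against 46.96 to 155 CPM). Of 8 microglia markers 2 were lower (316 to 474 CPM against 295 to 675 CPM), and of 8 pan-neuronal markers 5 were higher and 2 lower (4304 to 10931 CPM against 2782 to 5662 CPM). With oligodendrocyte and astrocyte scores as covariates, 17 members were higher and 15 lower in place of 40 and 7, and these held 17 of the 40 and all 7. The median log2 change of all genes tested was -0.027 in this fit and 0.024 without covariates. The share of all genes called in this fit is not given here, so its counts do not set the members apart from other genes. The counts for the 10 Th and 56 Drd1 libraries with a numeric label were 42 higher and 9 lower.

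Summed over its genes, each complex overlapped between the groups. Complex I summed to 3451 to 4257 CPM in the Th libraries, against 2670.2 to 5677 CPM in the Drd1 libraries. For complex II the sums were 671 to 814 CPM against 532 to 782 CPM, with means of 716 ± 39.0 and 640 ± 57.6 CPM (SD, n = 11 and 147). Complex III gave 1039 to 1353 CPM against 922 to 1690.3 CPM, complex IV 2146 to 2684 CPM against 1641 to 4689 CPM, and complex V 3935 to 4802 CPM against 3276 to 5836 CPM.

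**Figure D2:**
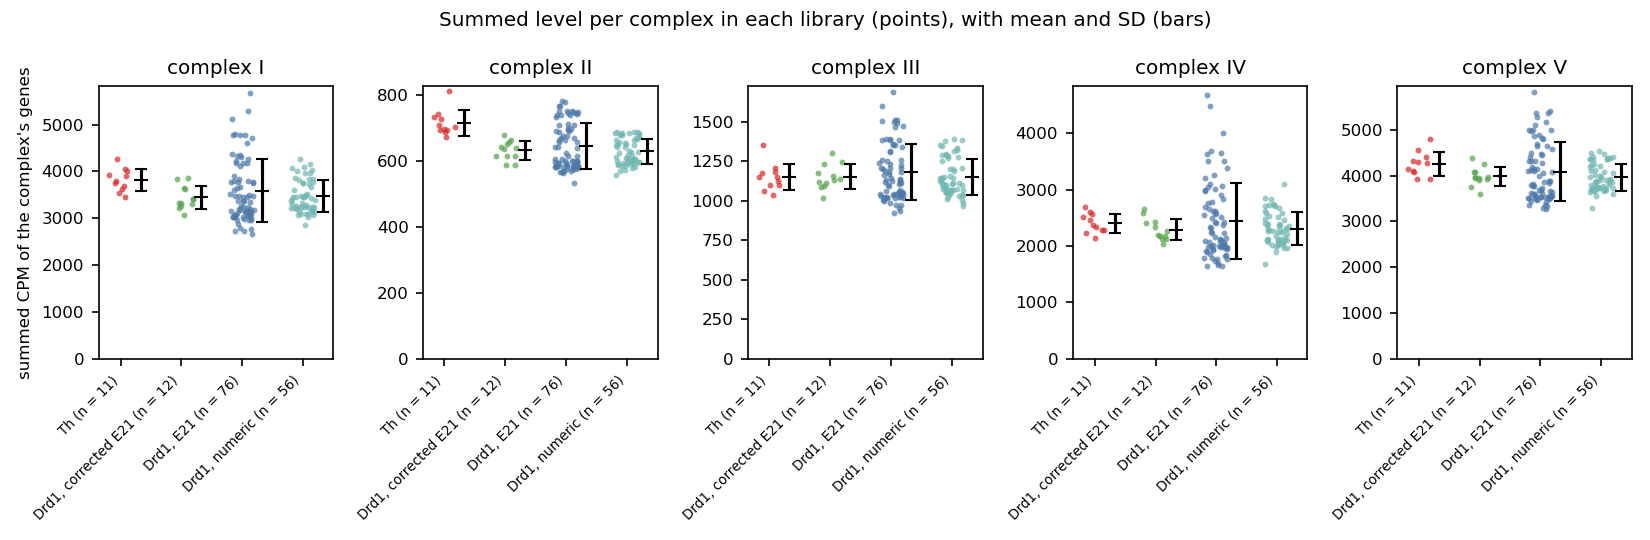
Summed CPM of each complex's genes (vertical axis) in every Th library and in the Drd1 libraries by label, as points, with the mean and SD as bars. The groups overlap in all 5 complexes, and the E21 libraries have the widest range, for complex I from 2670.2 to 5677 CPM.

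In complex I, 19 of 36 genes (52.8%) were higher in the Th libraries and 3 (8.33%) lower, against 39.4% and 35.4% of all genes tested. The median log2 change was 0.15. Ndufb7 and Ndufc1 are accessory subunits of the membrane arm. Ndufb7 had 69.99 to 94.7 CPM (median 78.9) in the Th libraries, against 39.2 to 117 CPM (median 60.4) in the Drd1 libraries (log2 change 0.37, SE 0.074, limma adjusted p = 2.36e-06), and Ndufc1 had 44.1 to 57.4 CPM (median 52.7) in the Th libraries, against 24.6 to 107 CPM (median 38.4) in the Drd1 libraries (log2 change 0.37, SE 0.088, limma adjusted p = 8.8e-05). Both overlapped between the groups, with most Drd1 libraries at the lower side. With the glial covariates Ndufb7 was still called, at 0.23. Ndufb4, another membrane arm subunit, had the widest spread of all members in the Drd1 libraries and was higher by 0.32 (SE 0.137, limma adjusted p = 0.0303), a call lost with the glial covariates, with median-of-ratios scaling and with no filter.

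The 3 complex I symbols that fell were Ndufa7, Ndufa4 and Ndufa6. Ndufa7, an accessory subunit, had 45.6 to 59.5 CPM (median 52.8) in the Th libraries, against 45.2 to 104 CPM (median 61.8) in the Drd1 libraries (log2 change -0.31, SE 0.084, limma adjusted p = 0.000397). Only 1 Drd1 library lay below the lowest Th library and 84 lay above the highest. Ndufa4 was first assigned to complex I and is now known as a subunit of complex IV; it had 200.2 to 268 CPM (median 219) in the Th libraries, against 193 to 509.8 CPM (median 249) in the Drd1 libraries (log2 change -0.25, SE 0.090, limma adjusted p = 0.00816). Ndufa6, which carries an LYR motif and binds the acyl carrier protein, had a log2 change of -0.23 (SE 0.093, limma adjusted p = 0.0187). Ndufa4 and Ndufa6 lost their calls under quantile normalization, at -0.11 and -0.13. With the glial covariates the log2 changes were larger, -0.52 for Ndufa7, -0.43 for Ndufa4 and -0.49 for Ndufa6, all called. Of the catalytic core subunits on the NADH side, Ndufs1 rose by 0.21 (limma adjusted p = 4.98e-05) and Ndufv2 by 0.15 (limma adjusted p = 0.0177; 0.031 and not called with the glial covariates), while Ndufv1, which binds NADH, had 147 to 184 CPM (median 173) in the Th libraries, against 133 to 198 CPM (median 165) in the Drd1 libraries and a change of 0.038 that did not pass (limma adjusted p = 0.277). Ndufb1 had the smallest change, at 0.026 (limma adjusted p = 0.833).

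In complex II all 4 genes passed the test, where 74.9% of all genes tested did, and they did not share a direction. Sdhb, the iron-sulfur subunit, had 126 to 156 CPM (median 143) in the Th libraries, against 82.0 to 144 CPM (median 103) in the Drd1 libraries (log2 change 0.45, SE 0.048, limma adjusted p = 2.07e-16), and 142 of 147 Drd1 libraries lay below the lowest Th library. Sdhc, a membrane anchor, rose by 0.37 (SE 0.077, limma adjusted p = 8.2e-06), but with the glial scores as covariates its change was 0.13 (limma adjusted p = 0.189). Sdha, the flavoprotein that oxidises succinate, rose by 0.17 (SE 0.042, limma adjusted p = 0.000133), and by 0.31 under quantile normalization. Sdhd, the other membrane anchor and the partner of Sdhc in binding haem, went the opposite way, with 94.5 to 124 CPM (median 105) in the Th libraries, against 100.3 to 197 CPM (median 129) in the Drd1 libraries (log2 change -0.34, SE 0.068, limma adjusted p = 2.41e-06). Its mean was 105 ± 7.63 CPM in the 11 Th libraries and 135 ± 22.6 CPM in the 147 Drd1 libraries (SD). The ranges overlap, with 85 Drd1 libraries above the highest Th library and 0 below the lowest. With the glial covariates the change of Sdhd was -0.51 and that of Sdhb 0.37.

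Complex III held the largest change of all tested members. Uqcr11, a small accessory subunit of the bc1 complex, lies on rat chromosome 7 in RefSeq GRCr8 and had 107 to 141 CPM (median 124) in the Th libraries, against 182 to 379 CPM (median 229) in the Drd1 libraries. The ranges do not touch: each of the 147 Drd1 libraries lay above each of the 11 Th libraries. Means were 125 ± 10.5 CPM in the 11 Th libraries and 238 ± 38.2 CPM in the 147 Drd1 libraries (SD), a log2 change of -0.91 (SE 0.066, limma adjusted p = 3.99e-28). Among all genes tested, 12.6% had ranges that did not overlap between these groups, 6.57% with the Th libraries lower. With the glial covariates the change was -0.99, and within the numeric label -0.93. Its copy Uqcr11l1 stayed at or under 0.175 CPM in every library of both groups. The library left out of both groups had 201 CPM.

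The other complex III genes did not follow Uqcr11. Uqcrh, the hinge protein next to cytochrome c1, had 111 to 159.7 CPM (median 132) in the Th libraries, against 72.9 to 173 CPM (median 103) in the Drd1 libraries (log2 change 0.33, SE 0.076, limma adjusted p = 4.04e-05). Uqcrc1, a core subunit, rose by 0.26 (SE 0.058, limma adjusted p = 3.58e-05) and Uqcr10 by 0.24 (SE 0.089, limma adjusted p = 0.0117). With the glial covariates the call of each of these 3 was lost (Uqcrh 0.16, Uqcrc1 0.12, Uqcr10 0.047 on the log2 scale); under quantile normalization Uqcrc1 was at 0.40. Uqcrc2, the other core subunit, had the smallest change of the complex, -0.006 (limma adjusted p = 0.9), at 212 to 272 CPM (median 230.4) in the Th libraries, against 183 to 293 CPM (median 232) in the Drd1 libraries. Uqcrb (0.038), Uqcrq (0.16) and the Rieske iron-sulfur protein Uqcrfs1 (0.11) also did not pass.

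**Figure D3:**
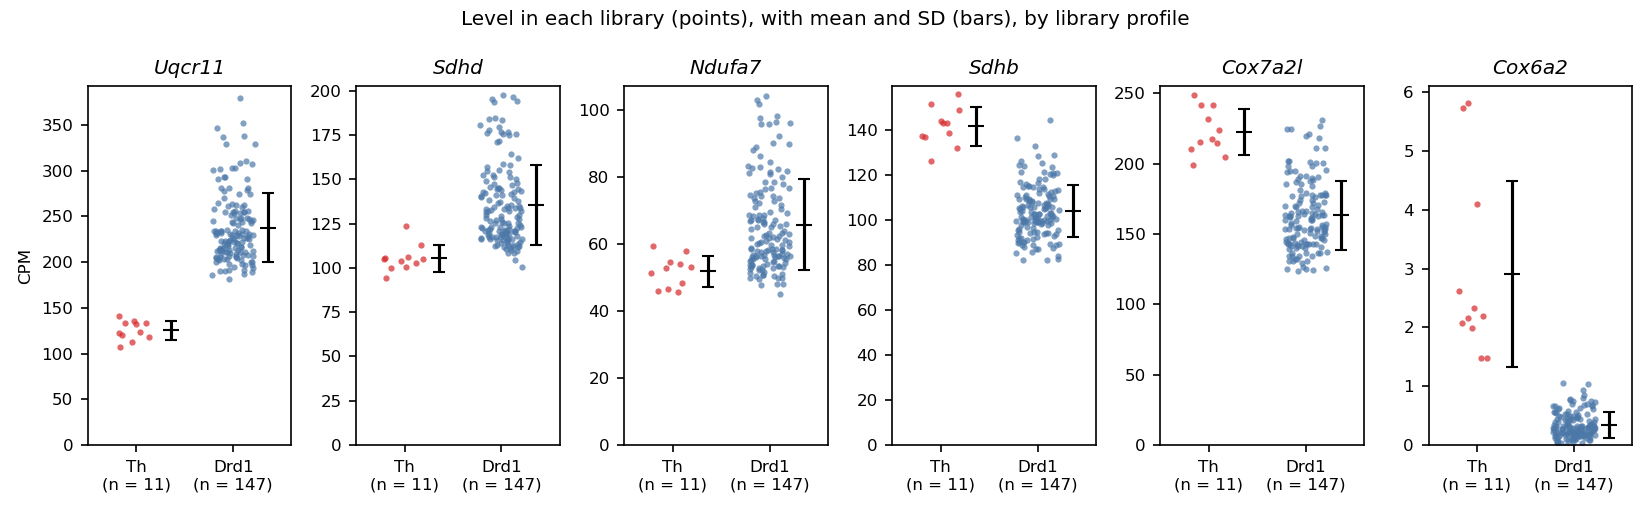
CPM (vertical axis, from 0) in each library for 6 genes, Th libraries left of Drd1 libraries, with mean and SD as bars. Uqcr11 and Cox6a2 show no overlap, Sdhd and Ndufa7 are lower and Sdhb and Cox7a2l are higher in the Th libraries with overlap.

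Complex IV had 18 members, 14 of them tested. Of these 5 (35.7%) were higher and 1 (7.14%) lower, against 39.4% and 35.4% of all genes tested. Cox5a, a subunit on the matrix side, had 185 to 247 CPM (median 209) in the Th libraries, against 105 to 333 CPM (median 152) in the Drd1 libraries (log2 change 0.44, SE 0.092, limma adjusted p = 9.56e-06). Cox7a2l, a factor that joins complexes III and IV into supercomplexes, had 199 to 249 CPM (median 217) in the Th libraries, against 124 to 231 CPM (median 159.9) in the Drd1 libraries. Of the Drd1 libraries 133 lay below the lowest Th library (log2 change 0.46, SE 0.064, limma adjusted p = 7.94e-11), and with the glial covariates the change was 0.23 (limma adjusted p = 0.00169). Cox7b rose by 0.33 (SE 0.090, limma adjusted p = 0.000652), and by 0.11 with the glial covariates, where it was not called. Cox8a, a small membrane subunit, was the 1 that fell, with 214 to 298 CPM (median 242) in the Th libraries, against 201 to 929.6 CPM (median 276) in the Drd1 libraries (log2 change -0.26, SE 0.11, limma adjusted p = 0.0331); this call was lost under quantile normalization, with no filter and against Drd1 libraries of low Slc17a7. Its log2 change was -0.51 with the glial covariates and -0.16 within the numeric label, called in both. Cox4i1, the regulatory subunit found in most tissues, had 412 to 560.4 CPM (median 463) in the Th libraries, against 361 to 797 CPM (median 475) in the Drd1 libraries and did not pass (log2 change -0.062, SE 0.081, limma adjusted p = 0.493). With the glial covariates Cox4i1 was called lower, at -0.34 (limma adjusted p = 0.000348). Cox5b had the smallest change, -0.0082 (limma adjusted p = 0.935).

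The remaining 2 risers of complex IV were tissue-type isoforms at low levels. Cox4i2, the lung isoform of Cox4, known in mouse brain from pericytes, had 2.17 to 4.02 CPM (median 3.12) in the Th libraries, against 0.710 to 5.91 CPM (median 1.68) in the Drd1 libraries (log2 change 0.63, SE 0.10, limma adjusted p = 2.16e-08). Cox7a1, the heart and muscle isoform of Cox7a, had 3.09 to 6.01 CPM (median 3.86) in the Th libraries, against 0.896 to 5.65 CPM (median 2.35) in the Drd1 libraries (log2 change 0.61, SE 0.090, limma adjusted p = 6.96e-10). Of the 147 Drd1 libraries 123 lay below the lowest Th library for Cox4i2 and 128 for Cox7a1, and the ranges overlap. Log2 changes at these levels depend on the pseudocount: at 4 in place of 1 they were 0.32 and 0.35, and with the glial covariates Cox7a1 was at 0.40, all called. The mural cell markers given above were split. Myh11, Acta2 and Tagln rose by 2.86, 2.67 and 2.49 on the log2 scale and Kcnj8 by 0.26, while Rgs5 (0.086) and Pdgfrb (0.018) did not pass. The part of mural cells in the changes of Cox4i2 and Cox7a1 was not tested. Cox6a2, the heart and muscle isoform of Cox6a, did not reach the filter, but its groups were apart: it had 1.48 to 5.82 CPM (median 2.20) in the Th libraries, against 0 to 1.06 CPM (median 0.292) in the Drd1 libraries. Of the genes that reached the filter, 12.6% had ranges that did not overlap, and no such share was taken for genes below it. A fit without the filter gave a log2 change of 1.47 (limma adjusted p = 1.15e-40). Cox8b, the muscle isoform of Cox8, had 0 to 4.89 CPM (median 0.498) in the Th libraries, against 0.0409 to 1.21 CPM (median 0.308) in the Drd1 libraries, and the highest Th value came from 1 library. Cox7b2 and Cox8c, known from testis, stayed at or under 0.326 and 0.133 CPM.

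In complex V, 10 of 18 tested genes (55.6%) were higher and 1 (5.56%) lower, against 39.4% and 35.4% of all genes tested. Atp5mc3, 1 of 3 genes that encode the same mature c subunit of the membrane ring, had 237 to 299 CPM (median 269) in the Th libraries, against 149 to 529.9 CPM (median 193) in the Drd1 libraries (log2 change 0.38, SE 0.086, limma adjusted p = 3.36e-05). Atp5me and Atp5mf are small subunits at the membrane part. Atp5me had 68.7 to 92.4 CPM (median 82.2) in the Th libraries, against 30.7 to 134 CPM (median 66.4) in the Drd1 libraries (log2 change 0.33, SE 0.10, limma adjusted p = 0.00242; 0.21 within the numeric label), and Atp5mf had 122 to 168 CPM (median 147) in the Th libraries, against 79.9 to 168 CPM (median 115) in the Drd1 libraries (log2 change 0.32, SE 0.071, limma adjusted p = 2.96e-05). For Atp5mf the call was lost with the glial covariates, where its change was 0.086 (limma adjusted p = 0.343). Atp5pf, a peripheral stalk subunit, rose by 0.24 (limma adjusted p = 0.00416) and likewise had 0.12 with the covariates (limma adjusted p = 0.244), and 0.38 under quantile normalization.

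The alpha and beta subunits of the catalytic head of ATP synthase changed by 0.15 or less on the log2 scale. Of the other Atp5f1 genes, Atp5f1c rose by 0.18 and Atp5f1d by 0.15 (limma adjusted p = 0.000164 and 0.0219), and Atp5f1e (-0.094) did not pass. With the glial covariates the calls of Atp5f1c (0.083) and Atp5f1d (0.025) were lost, and Atp5f1e was called lower, at -0.37. Atp5f1b, the catalytic beta subunit, had 1027 to 1279 CPM (median 1142) in the Th libraries, against 958 to 1531 CPM (median 1142) in the Drd1 libraries and a log2 change that was the smallest of all members, -0.00015 (SE 0.043, limma adjusted p = 0.998). Atp5f1a, the alpha subunit, rose by 0.15 (SE 0.037, limma adjusted p = 0.000192), and Atp5if1, the inhibitor that blocks ATP hydrolysis by the enzyme, by 0.16 (SE 0.069, limma adjusted p = 0.0292). With the glial covariates Atp5if1 was not called, at 0.11. The 1 gene that fell was Atp5mk, a small membrane subunit linked to dimers of the enzyme, with 40.3 to 62.4 CPM (median 55.8) in the Th libraries, against 32.9 to 182 CPM (median 61.7) in the Drd1 libraries (log2 change -0.29, SE 0.097, limma adjusted p = 0.00419). Its copy Atp5mkl1 averaged 17.4 CPM in the Th libraries and 15.9 CPM in the Drd1 libraries, and near-identical copies can share reads. The copies Atp5mgl3 and Atp5mgl4, which the symbol rule keeps, stayed at or under 0.319 and 0.483 CPM.

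Log2 ratios between isoforms of 1 subunit were compared as well, for 6 pairs with both genes at 1 CPM or more, by a permutation test of 100000 resamples, two-sided, whose smallest p is 1e-05. The common partners differed little in the fit without covariates. On the log2 scale Cox6a1 was at -0.086, Cox6b1 at 0.14, Cox7a2 at -0.013, Atp5mc1 at -0.11 and Atp5mc2 at -0.17, Th over Drd1 libraries, and none of these passed. With the glial covariates Cox6a1 (-0.34) and Atp5mc2 (-0.40) were called lower, while Cox6b1, Cox7a2 and Atp5mc1 were not called. The ratios were not run with these covariates. The ratio of Cox4i2 to Cox4i1 was -6.83 ± 0.240 in the Th libraries and -7.52 ± 0.353 in the Drd1 libraries (SD, n = 11 and 147), a difference of 0.69 (permutation p = 1e-05, adjusted over the 6 pairs 1.5e-05). For Cox7a1 to Cox7a2 the difference was 0.62 (ratios of -4.42 ± 0.295 and -5.05 ± 0.302, permutation p = 1e-05). Both muscle- or lung-type isoforms thus took a larger share of their pair in the Th libraries. The size of these differences depends on the pseudocount: at 0.25 they were 0.89 for Cox4i2 to Cox4i1 and 0.77 for Cox7a1 to Cox7a2, and at 4 they were 0.39 and 0.36, each with an adjusted permutation p of 1.5e-05. Among the c subunit genes, the ratio of Atp5mc1 to Atp5mc3 was -1.26 ± 0.116 in the Th libraries and -0.77 ± 0.183 in the Drd1 libraries, and that of Atp5mc2 to Atp5mc3 was -1.24 ± 0.160 and -0.69 ± 0.202 (each with permutation p = 1e-05). Atp5mc1 to Atp5mc2 differed by 0.067 (permutation p = 0.292), so the shift was towards Atp5mc3. Cox6b2, a testis isoform near 1 CPM, differed by -0.21 against Cox6b1 (permutation p = 0.00476, adjusted 0.00571); with a pseudocount of 0.25 the difference was -0.24 and the adjusted p 0.0632. Within the numeric label the first 2 differences were 0.73 and 0.79.

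Genes of nearby pathways were taken from lists by pathway. Their counts stand beside 39.4% higher and 35.4% lower among all genes tested. Of 16 genes of the TCA cycle and pyruvate dehydrogenase 10 were higher and 1 lower in the Th libraries (median log2 change 0.20). Fh, fumarate hydratase, which follows succinate dehydrogenase in the cycle, averaged 83.7 ± 6.85 CPM in the Th libraries and 53.4 ± 5.88 CPM in the Drd1 libraries (SD, n = 11 and 147, log2 change 0.64, SE 0.047, limma adjusted p = 1.48e-27). Glycolysis genes were higher in 11 and lower in 2 of 15 (median 0.29), with the phosphofructokinase Pfkl at 0.61 and the lactate dehydrogenase Ldhb at 0.49 on the log2 scale. Of 6 carriers and porins, which move ATP, ADP, phosphate and metabolites across the mitochondrial membranes, 5 were higher and 1 lower (median 0.30), with the porin Vdac2 at 0.49 and the ADP/ATP carrier Slc25a4 at 0.39. Cytochrome c, Cycs, fell by 0.15 and Ndufab1, the acyl carrier protein of complex I, rose by 0.25, both log2 changes, while cytochrome c1 (Cyc1) did not pass, at 0.041.

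Genes that build the complexes were split in direction. Of 15 complex I assembly factors 7 were higher and 4 lower, and of 30 factors for complexes II to V 11 were higher and 13 lower (median log2 change -0.060). Ttc19, a factor of complex III, averaged 35.8 ± 3.51 CPM in the Th libraries and 75.3 ± 6.42 CPM in the Drd1 libraries (SD, n = 11 and 147, log2 change -1.05, SE 0.040, limma adjusted p = 3.35e-58). Its fall was on the scale of that of Uqcr11, in the same complex, while Uqcc1, another complex III factor, rose by 0.55. Cox15 and Coa5, factors of complex IV, changed by -0.49 and -0.51. Of 11 regulators of mitochondrial biogenesis 3 were higher and 6 lower (median -0.12). Both parts of GABP were among those lower, Gabpb1 at -0.56 and Gabpa at -0.55, and so was Yy1 at -0.30. Among those higher was Tfb1m, at 0.28. Mitochondrial ribosomal protein genes were higher in 28 and lower in 13 of 74 (median 0.078). The median of all genes tested was 0.024, with 39.4% of them higher and 35.4% lower.

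Label formats were compared within the Drd1 libraries, as no other label sets libraries apart; no label says what the formats stand for. In the 76 E21 libraries 14 of 80 members were higher and 5 lower than in the 56 numeric ones (limma, adjusted p of 0.05). That is 23.8% called, against 37.6% of all genes tested; 17.5% were higher, against 11.7%, and 6.25% lower, against 25.9%. All changes were between -0.24 and 0.26 on the log2 scale. With median-of-ratios scaling the counts were 22 higher and 4 lower. Total counts averaged 22.3 ± 4.93 M in the E21 libraries and 28.6 ± 9.12 M in the numeric ones (SD, n = 76 and 56), so depth moved with the label. The 8 pan-neuronal markers were all lower in the E21 libraries (summed level 2782 to 5298 CPM against 3655.6 to 5587 CPM), 7 of 8 cortical markers were lower (26.3 to 1486 CPM against 42.5 to 1314 CPM) and 7 of 10 medium spiny neuron markers higher (3717 to 7784 CPM against 2793 to 7176 CPM).

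The genes that rose were spread over the 5 complexes. Atp5mc1, a gene of the c subunit, had the largest rise, with 83.2 to 246 CPM (median 121) in the E21 libraries, against 74.5 to 141 CPM (median 105) in the numeric ones (log2 change 0.26, SE 0.056, limma adjusted p = 9.1e-05). In complex I, Ndufb6 rose by 0.18, Ndufa7 by 0.17, Ndufc2 by 0.16 and Ndufa6 by 0.13 on the log2 scale. Sdhd rose by 0.13, Uqcrfs1 by 0.11, Uqcrc1 by 0.086, Cox8a by 0.20, Atp5mc2 by 0.17 and Atp5mpl by 0.16. For Cox8a the mean was 337 ± 132 CPM in the E21 libraries and 278 ± 32.6 CPM in the numeric ones (SD, n = 76 and 56), with a highest library of 929.6 CPM in the E21 group and 394 CPM in the numeric group. The medians of Cox8a were 278 and 271 CPM, so the groups differed more in their upper range than in their middle. With the total count as a covariate only Atp5mc1 of the 14 was still called (0.19, limma adjusted p = 0.02).

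The 5 genes that fell were Atp5me, Cox7a2, Cox7b, Atp5if1 and Ndufa5. Atp5me averaged 62.3 ± 17.4 CPM in the E21 libraries and 73.1 ± 14.1 CPM in the numeric ones (SD, n = 76 and 56, log2 change -0.24, SE 0.056, limma adjusted p = 0.000296). Cox7a2, the broadly expressed isoform of Cox7a, averaged 106 ± 21.4 CPM in the E21 libraries and 121 ± 20.9 CPM in the numeric ones (SD, n = 76 and 56, log2 change -0.20, SE 0.044, limma adjusted p = 0.000124). Its copy Cox7a2l2 averaged 21.2 CPM in the E21 libraries and 8.12 CPM in the numeric ones, and when the counts of copies were added to their parents, Cox7a2 was not called. Atp5if1, the inhibitor, averaged 116 ± 20.7 CPM in the E21 libraries and 129 ± 18.6 CPM in the numeric ones (SD, n = 76 and 56, log2 change -0.16, SE 0.039, limma adjusted p = 0.000689). Cox7b fell by 0.16 and Ndufa5 by 0.094 on the log2 scale, and with median-of-ratios scaling Ndufa5 was not called. All 5 were still called with the total count as a covariate, where 10 members were lower in all. Among Drd1 libraries with under 100 CPM of Slc17a7, 40 E21 and 13 numeric ones, limma called no member in either direction, and 6 of 80 had an unadjusted p under 0.05. The share of all genes called is not given here for this fit or for that with the total count. These counts therefore do not set the members apart from other genes.

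**Figure D4:**
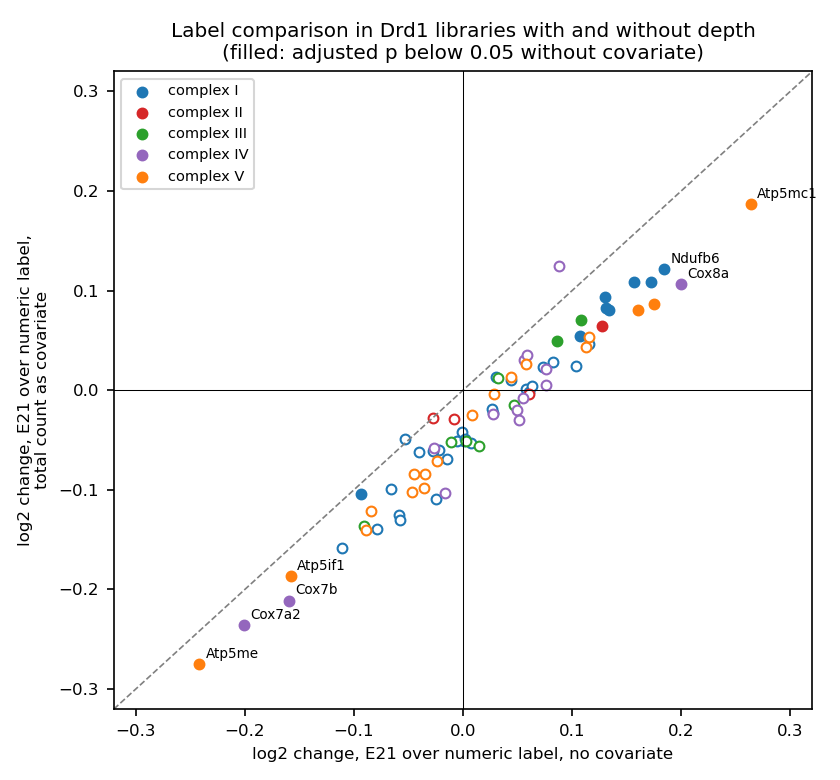
Log2 change of 79 of the 80 tested genes, E21 over numeric label in Drd1 libraries, without a covariate (horizontal axis) and with the log2 total count as a covariate (vertical axis); filled points passed limma's adjusted p of 0.05 without it, and the dashed line marks equal values. Most points lie below the line: with the covariate Atp5mc1 is at 0.19 and Atp5me at -0.28, and without it they are at 0.26 and -0.24.

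Between the 12 corrected E21 and the 76 E21 libraries limma called none of the 80 members in either direction, against 8.2% of all genes tested (6.32% higher and 1.88% lower), and 3 members had an unadjusted p under 0.05. The log2 changes lay between -0.26 (Cox4i2) and 0.19 (Cox7a2), and the smallest adjusted p was 0.0904 in limma, for Ndufa5. Ndufa5 averaged 83.3 ± 7.58 CPM in the corrected E21 libraries and 76.7 ± 7.94 CPM in the E21 libraries (SD, n = 12 and 76). With the total count as a covariate Ndufa5 and Cox7a2 were called as higher, and under quantile normalization Cox4i2 as lower.

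Within the Drd1 libraries the members rose and fell together. Over 147 libraries the median Pearson r of log2(CPM + 1) between members was 0.71 (quartiles 0.54 and 0.82), where all pairs of tested genes had a median of 0.025. Points of such a correlation share the library, its depth and its scaling, so it is given as a description. The median was 0.73 within a complex and 0.70 between complexes. By complex it was 0.75 in I, 0.67 in III, 0.70 in IV and 0.68 in V, and 0.34 among the 4 genes of complex II. It was 0.50 in the 12 corrected E21 libraries, 0.78 in the 76 E21 libraries and 0.63 in the 56 numeric ones, and 0.70 without the 2 libraries farthest from the median summed level. Members' summed level ranged from 11245 to 13910 CPM in the Th libraries and from 9090.5 to 18391 CPM in the Drd1 libraries.

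The members did not all take part. Of the 80 members 62 had a median r above 0.6 with the rest, and 2 were below 0: Ndufs1 at -0.41 and Sdha at -0.25. Ndufs1 carries iron-sulfur clusters of complex I and Sdha the flavin of complex II; they had an r of 0.77 with each other. The highest medians were those of Cox6c (0.83), Ndufs8 (0.83) and Atp5mpl (0.82). The genes outside the set most like it, by their median r with the 80 members over 147 libraries, were Nme2 (0.84), Lage3 (0.83), Phpt1 (0.83), Txn1 (0.83), Ppia (0.82) and Lamtor1 (0.82). At the other end stood Trip12 (-0.83), Tnks (-0.82), Ncoa2 (-0.82) and Aff4 (-0.82). Mitochondrial ribosomal protein genes had a median of 0.66 with the members, glycolysis genes 0.36, TCA cycle genes 0.16, biogenesis regulators -0.32 and pan-neuronal markers -0.35.

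**Figure D5:**
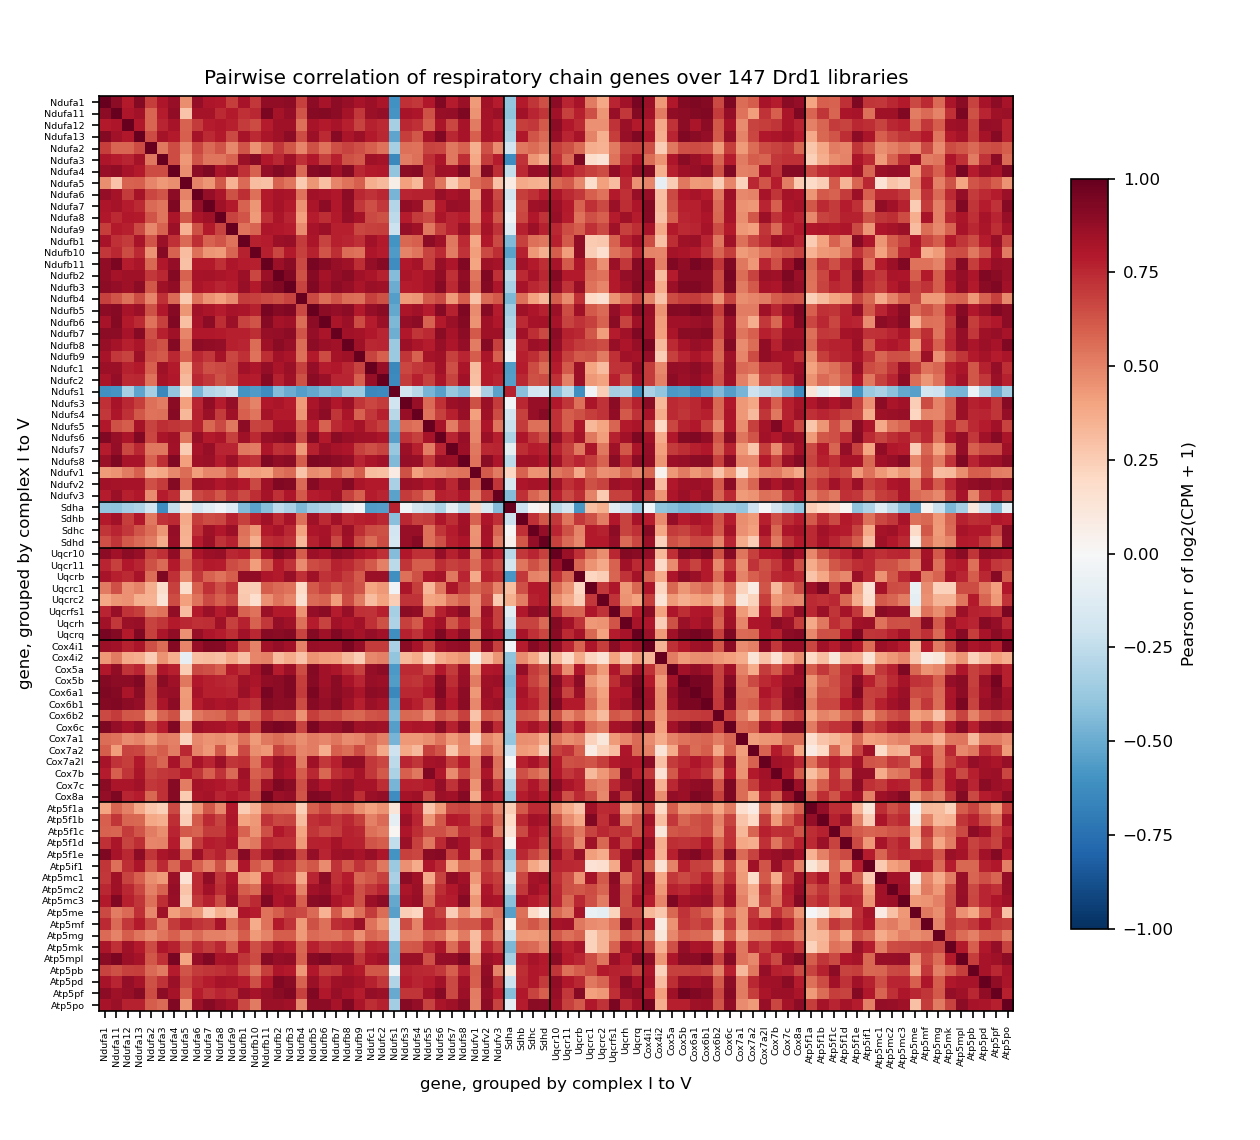
Pearson r of log2(CPM + 1) between each pair of 79 of the 80 tested genes over 147 Drd1 libraries (colour, from -1 in blue to 1 in red), ordered by complex with black lines between complexes. Red fills most of the map within and across complexes. The rows of Ndufs1 and Sdha stand out as mostly blue, with an r of 0.77 where they cross each other.

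The spread between Drd1 libraries differed by gene. The SD of log2(CPM + 1) had a median of 0.27 over the members, from 0.10 to 0.46, and 0.24 over all genes tested. By complex its median was 0.26 in I, 0.19 in II, 0.24 in III, 0.30 in IV and 0.28 in V. Ndufb4 (0.46), Ndufa2 (0.41), Atp5f1e (0.39), Atp5mg (0.39) and Cox8a (0.38) varied most. Ndufv1 (0.10), at 133 to 198 CPM, varied least, followed by Atp5f1a (0.12), Uqcrc2 (0.13), Sdha (0.13) and Atp5f1b (0.14). Cox8a, at the other end, spanned 201 to 929.6 CPM.

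Set beside the promoters, the NRF1 letters occurred in 10 of the 36 members with a promoter that were higher in the Th libraries, in 0 of the 6 that were lower and in 5 of 29 not called. For the ETS letters these counts were 9 of 36, 4 of 6 and 8 of 29. Where a complex had more than 1 match, the shown promoter was picked by the log2 change of its gene. The rises of Ndufv3 and Atp5me, by 0.29 and 0.33 on the log2 scale, partly follow from that choice. Uqcrc1, which rose by 0.26, held the only NRF1 match of complex III, and Sdha the only one of complex II. Cox5b, picked in the same way among the complex IV genes with an ETS match, was among the members that changed least. The promoter of Uqcr11 is not in the table used here.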

How the data were processed

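PolyA RNA of the nucleus accumbens core was measured in 159 libraries. The submitters' processing notes name kallisto 0.48; annotation, build, strand and the step to gene level are not given in the sources. The authors deposited unscaled log2 values of expected counts with 1 added, which was read from the values. These were turned back to expected counts and CPM, and log2(CPM + 1) was tested, so fold changes understate the change of low genes; levels are not scaled by length. limma 3.58.1 (R 4.3.3) was run with an intensity trend on 15427 genes (mean CPM of 1 or more), and was tested on simulated data. Other tools were matplotlib 3.10.9, scipy 1.17.1, pandas 2.3.3 and numpy 2.4.6 in Python 3.11.15. Each library is a different rat, so p-values measure the spread between these libraries. Pseudoalignment can share reads between near-identical copies and overlapping genes.

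Members, lists and tests were chosen with earlier results of these data known. Named members are, per complex and comparison, up to 4 called rises and 4 called falls with the largest change, the smallest change of each complex, those below the filter, isoform pairs and the 5 highest and 5 lowest SDs; of other pathways, up to 4 genes per list with the smallest p. Atp5f1c, Atp5f1d, Ndufs1, Ndufv2, Uqcrb, Uqcrq and the genes of the correlations were added after their values were seen. The pairs Cox6a2/Cox6a1 and Cox8b/Cox8a were too low to test. Some genes are not reported here.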

Additional observations from a re-analysis of the deposited data

How the results depend on the processing

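In the comparison of Th with Drd1 libraries, glial covariates gave 17 higher and 15 lower members in place of 40 and 7, and quantile normalization gave 51 higher and 4 lower (Uqcr11, Sdhd, Ndufa7 and Atp5mk). Other settings gave 32 to 47 higher and 6 to 9 lower. Shares of all genes called are given for the main fits only. Of 25 named calls, 18 held with the glial covariates, 22 under quantile normalization and all 25 with a depth covariate, within the numeric label and at either pseudocount. In the comparison of E21 with numeric labels, the members higher were 22 with median-of-ratios scaling, 24 with cell type covariates, 1 with the depth covariate, 5 with depth and cell type covariates and 0 at low Slc17a7, in place of 14; those lower were 10 with the depth covariate and 0 at low Slc17a7, in place of 5. The low-Slc17a7 fit used 40 and 13 libraries. For corrected E21 against E21, the depth covariate gave 2 higher and quantile normalization 1 lower, in place of 0. The log2 ratio difference of Cox6b2 to Cox6b1 was -0.24 at a pseudocount of 0.25 and did not pass. No direction reversed among these 25 calls, the 16 named calls of E21 against numeric labels and the 6 ratios, over the alternatives run. Small changes that did not pass, such as those of Atp5f1b and Uqcrc2, did change sign. Some calls outside the 25 did so too. With the glial covariates Ndufb8 went from 0.22 to -0.023, Ndufa8 from 0.15 to -0.048 and Atp5pb from 0.11 to -0.013, none still called. Ndufb9, not called at 0.061, was called at -0.26 with these covariates. The causes were not tested. The fits with summed copies, low Slc17a7, and depth with cell types were chosen after seeing the data. No scaling moved the median of all genes by over 0.1. Single members moved more under quantile normalization, such as Sdha from 0.17 to 0.31 and Ndufa4 from -0.25 to -0.11, Th over Drd1 libraries. No paired analysis was possible because replicate numbers follow accession order only and each library is a different rat. At 14.6 to 61.2 M counts, genes under 1 CPM, such as Cox8b, Cox7b2 and Cox8c, rest on few reads.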
